A study of Mus musculus with 32 samples.

Results

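The 35 genes described here encode proteins of interstrand crosslink repair, homologous recombination, translesion synthesis, mismatch repair and the DNA damage checkpoint. They were taken from a list of symbols, matched to the Ensembl identifiers of the gene tables through the GENCODE annotation of mm10. All 35 were found, out of 25041 genes that the annotation placed and that all 3 assays listed. By role they comprised 7 genes of the Fanconi core complex and its anchor (Fanca, Fancc, Fance, Fancf, Fancg, Fancl, Fancm), the 2 genes of the FANCI-FANCD2 clamp, 7 genes of recombination (Brca1, Brca2, Palb2, Brip1, Rad51c, Xrcc2, Xrcc3) and 5 nuclease genes (Slx4, Mus81, Eme1, Fan1, Dclre1a). The others were 7 genes of translesion synthesis (Polh, Polk, Poli, Rev1, Rev3l, Mad2l2, Rad18), 3 of mismatch repair (Msh3, Msh6, Pms2) and 4 checkpoint kinases (Atm, Atr, Chek1, Chek2). The genes ran from 1.69 to 212 kb in length, with a median of 31.3 kb, and 4 of them, Fancc, Brip1, Rev3l and Msh3, were longer than 100 kb.

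All animals were female C57BL/6J mice without a genetic change, 6 or 7 months of age. The cisplatin group received 10 mg/kg of cisplatin into the peritoneum and the control group received saline, and the labels give a time of 2 h, whereas the treatment protocol places injection and sacrifice 4 h apart. Kidney, liver, lung and spleen were taken, and each organ had 2 Damage-seq and 2 XR-seq libraries, all from the cisplatin group, and 4 RNA-seq libraries, 2 of the control group and 2 of the cisplatin group, which made 32 libraries. The labels do not tie a library to an animal, so p-values measure the spread between these libraries.

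Cisplatin joins neighbouring purines, mostly 2 guanines, within 1 strand and less often joins the 2 strands of the helix. Nucleotide excision repair removes the adducts within a strand, and does so faster on the transcribed strand because a stalled RNA polymerase recruits the repair proteins. The Fanconi proteins recognise crosslinks between strands at stalled replication forks, nucleases unhook them, translesion polymerases copy across the remnant, and the recombination proteins restore the broken arm. Mismatch repair proteins bind platinated DNA that has been copied, and Atm, Atr, Chek1 and Chek2 relay the damage signal. Damage-seq places adducts by the point where a polymerase stops, and XR-seq sequences the oligomers that excision repair has cut out, so both report damage and excision repair within the bodies of these genes, not the activity of their proteins.

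The libraries held 1571167 to 6441367 reads in genes for Damage-seq, 10658675 to 59779770 for XR-seq and 15619474 to 162270280 for RNA-seq. Markers of each organ, such as those of hepatocytes in liver, were all higher in their own organ than in the others (7 of 7 for kidney, 7 of 7 for liver, 6 of 6 for lung and 6 of 6 for spleen). The control and cisplatin labels of the lung and spleen RNA libraries had been exchanged by the submitters in a correction, and Cdkn1a, a p53 target, went with the present labels in all 4 organs. Its level was 150 and 143 counts per 1000000 reads (CPM) in lung controls against 503 and 587 after cisplatin, and 13.2 and 13.3 against 39.5 and 34.1 in spleen. The 2 control libraries of lung differed by little more than sampling noise, with a chi-square index per gene of 2.75 against a value of 1 for counting error alone, and those of spleen by 2.98, where the other RNA pairs gave 39.3 to 349. Each of those 2 pairs was therefore summed and counted as 1 sample in every RNA test. The standard errors and p-values of those controls rest on the spread of the other RNA pairs in the fit (the cisplatin pair alone for the response of lung or spleen), and where both libraries of such a pair are printed, their lying apart from other groups is not a replicate check. Damage-seq pairs gave 1.43 to 3.11 and XR-seq pairs 7.26 to 32.7, and all were kept as 2 samples. The Damage-seq p-values may therefore measure little more than counting noise.

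In spleen, 17 of the 35 genes had more RNA before treatment than the mean of the 3 other organs, and none had less. This comparison used control libraries alone and edgeR's quasi-likelihood test against a change of 0.4 on the log2 scale, and a gene is called where its adjusted p was under 0.05. Of all 19088 genes tested, 24.1% were called higher in spleen and 17.1% lower. The median log2 difference of the 35 genes was 1.19, against 0.21 for all genes, and 31 of the 35 were above 0. In these bulk organs fewer cells of a type and less RNA per cell cannot be told apart.

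The FANCI-FANCD2 clamp, which is locked onto DNA at a stalled fork, showed this most plainly. Fanci (chr7:79391929-79450264, plus strand) was at 1.36 and 1.55 reads per kilobase of exon and 1000000 reads (RPKM) in the spleen controls, 0.319 and 0.403 in lung, 0.0538 and 0.0409 in kidney and 0.0423 and 0.0250 in liver. The spleen sample lay above every other library, and the kidney and liver libraries overlapped. The log2 difference of spleen from the mean of the other organs was 3.76 ± 0.38 (SE, adjusted p = 2.7e-05), and that of its partner Fancd2 was 3.57 ± 0.35 (adjusted p = 2.5e-05). Of the core complex, 3 of 7 genes were higher in spleen. Fanca, a scaffold subunit, stood at 1.91 and 1.97 RPKM in spleen, 0.920 and 0.937 in lung, 0.473 and 0.547 in kidney and 0.0669 and 0.0259 in liver, and the 4 organs did not overlap. Fancg and Fancl, the latter the ubiquitin ligase of the complex, were higher by 1.64 and 1.07 on the log2 scale.

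Recombination contributed 4 of 7 genes. Brca1 reached 2.82 and 2.66 RPKM in spleen controls against 0.0971 and 0.0894 in kidney, with liver (0.375 and 0.242) and lung (0.542 and 0.601) between them. RPKM values are scaled by library totals, without the TMM scaling factors that the tests applied. Those factors were 0.659 and 0.559 for the liver controls and 1.32 for the summed lung control. The order of liver and lung therefore depends on the scaling. The log2 difference of Brca1 in spleen was 3.02 ± 0.27. Those of Palb2, which links BRCA1 to BRCA2, Brca2 and the helicase gene Brip1 were 2.76, 1.95 and 1.64. Among the nucleases only Eme1, which encodes the partner of MUS81, was called in spleen. Eme1 (chr11:94644996-94653964, minus strand) had 1.96 and 2.08 RPKM there, 0.458 and 0.559 in lung and at most 0.0562 in any kidney or liver library, a log2 difference of 3.79 ± 0.42. Mus81 itself differed by 0.36 ± 0.27 and was not called.

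Of the translesion genes Rad18, the ligase that marks the sliding clamp, Poli and Polh were higher in spleen, by 2.96, 1.49 and 1.19 on the log2 scale. Rad18 stood at 4.11 and 4.35 RPKM in spleen, 1.28 and 1.21 in lung, and 0.177 to 0.411 in kidney and liver. Msh6, which finds single mispaired bases, was the most abundant member per length in spleen controls, at 16.8 and 17.2 RPKM, and was at 3.45 to 7.48 RPKM elsewhere, and both it (1.14) and Pms2 (1.80) were called. Of the kinases Chek1 and Chek2 were higher, by 3.26 and 1.54, and Atm and Atr were not called.

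Kidney had 10 lower genes and 1 higher gene, against 15.7% of all genes lower there and 19.6% higher. The 10 were Fancd2, Fanci, Brca1, Brca2, Brip1, Eme1, Mad2l2, Rad18, Pms2 and Chek1, from -0.90 for Pms2 to -3.22 for Brca1. The higher gene was Slx4, with a log2 difference of 1.54 ± 0.29. Slx4 encodes the platform for the crosslink nucleases, and stood at 4.94 and 5.16 RPKM in kidney, above spleen (4.36 and 4.37), lung (2.07 and 2.06) and liver (0.561 and 0.307), with no overlap.

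Liver had 9 lower genes and 1 higher gene, against 24.6% of all genes lower and 17.7% higher. Fanca was furthest below the other organs, at -3.42, followed by Fanci (-2.14), Slx4 (-2.05), Eme1 (-1.98), Chek1 (-1.77) and Rad18 (-1.68), and Fancd2, Chek2 and Pms2 were lower by smaller amounts. Mad2l2, a subunit of polymerase zeta, was the higher gene, at 9.45 and 9.71 RPKM in liver against 2.94 to 5.87 RPKM in the other organs. Under scaling by library totals 21 members were lower and 1 higher, with the median of all genes going from -0.36 to -1.36. Without liver control 2 the liver calls went from 10 to 5, and Fancd2, Eme1, Pms2, Chek1 and Chek2 were no longer called. In lung, where 18.3% of all genes were higher and 5.85% lower, only Brca2 was called, at -1.25, and that call was lost without kidney control 1, liver control 1 or spleen control 2. The median of the members in lung was -0.39, and it turned to 0.07 when libraries were scaled by their totals. The lung controls also held more RNA of other tissues than the mean of the other organs, with 6 of 6 T cell, 4 of 6 B cell, 3 of 4 adipose and 2 of 4 lymph node vessel markers higher. The adipose markers summed to 332 to 334 CPM in lung controls and at most 90.7 CPM in any other control, and their part in the members' levels was not tested.

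**Figure D1:**
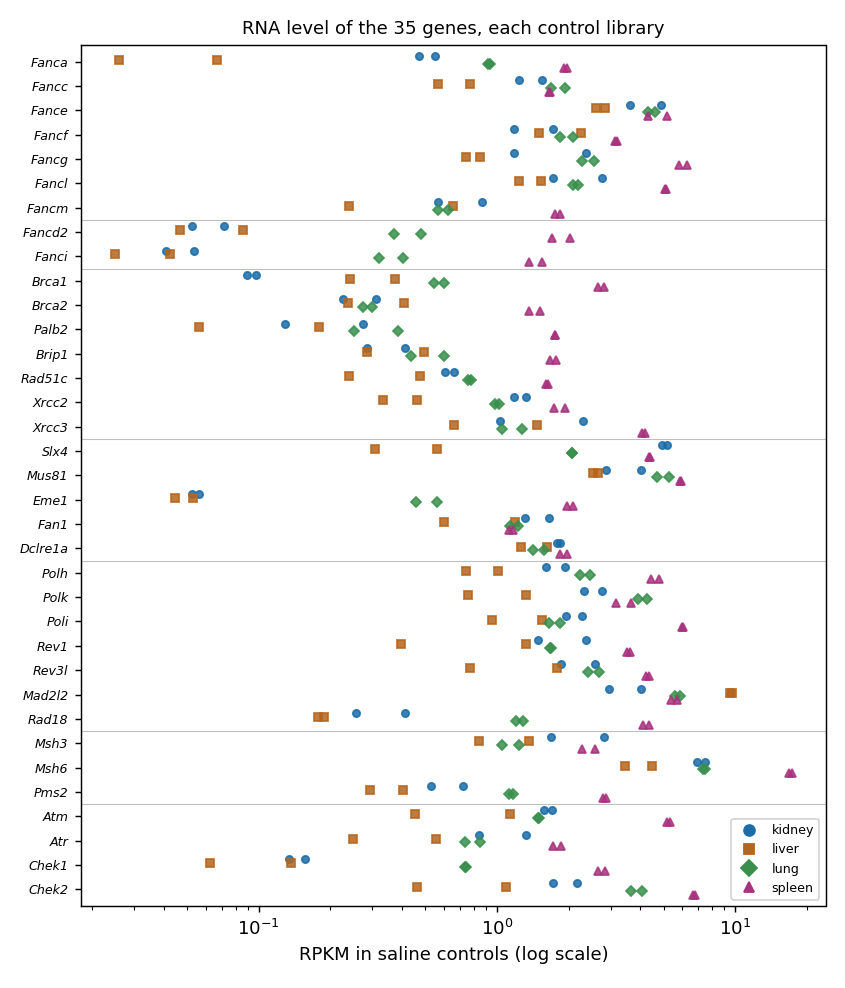
Level of each of the 35 genes before treatment, in RPKM on a log axis, with 1 point for each of the 8 control libraries coloured by organ. Genes are grouped by role, and the spleen points of Fanci (1.36 and 1.55 RPKM), Eme1 (1.96 and 2.08) and Brca1 (2.82 and 2.66) stand to the right of those of the other organs.

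A list of 20 proliferation genes moved with the same organs. Of these, 19 were higher in spleen controls, with a median log2 difference of 3.29, and Tyms was the exception, while 18 were lower in kidney, 15 lower in liver and 3 higher in lung. Their summed level was 1756 to 1761 CPM in the spleen controls, 516 to 518 in lung, 148 to 154 in kidney and 92.3 to 101 in liver. All 7 erythroid, 6 B cell and 6 T cell markers were also higher in spleen. The part of these cells in the members' levels was not tested. Among 48 other genes of the same pathways, 26 were higher in spleen, among them Blm, Exo1 and Fancb, and none was lower.

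The promoters of 6 genes higher in spleen are shown because many genes of the cell cycle carry E2F sites or CHR elements near their start. Eme1 and Fanci were picked for their RNA difference in spleen. Brca2, Fancg, Chek2 and Msh6 were picked because their only window holds an E2F match. The share of matches among the 6 is therefore not that of the genes higher in spleen. The windows run from 250 bases before to 50 bases after the transcript start in RefSeq on GRCm38.p6, and 31 of the 35 genes had one. Capitals mark a match to TTTCCCGC, TTTCGCGC, TTTGCCGC or TTTGGCGC on either strand, and a match to the reverse strand reads as GCGGGAAA. The windows are chr11:94653694-94653993 on the minus strand for Eme1, chr7:79392088-79392387 on the plus strand for Fanci, chr5:150522371-150522670 on the plus strand for Brca2, chr4:43010252-43010551 on the minus strand for Fancg, chr5:110839733-110840032 on the plus strand for Chek2 and chr17:87974800-87975099 on the plus strand for Msh6.
Eme1: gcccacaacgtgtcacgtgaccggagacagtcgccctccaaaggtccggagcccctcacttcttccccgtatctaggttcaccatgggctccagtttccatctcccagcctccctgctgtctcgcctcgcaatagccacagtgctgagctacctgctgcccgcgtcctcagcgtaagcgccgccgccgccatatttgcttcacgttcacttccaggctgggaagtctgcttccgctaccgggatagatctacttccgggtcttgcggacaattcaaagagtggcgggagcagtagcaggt
Fanci: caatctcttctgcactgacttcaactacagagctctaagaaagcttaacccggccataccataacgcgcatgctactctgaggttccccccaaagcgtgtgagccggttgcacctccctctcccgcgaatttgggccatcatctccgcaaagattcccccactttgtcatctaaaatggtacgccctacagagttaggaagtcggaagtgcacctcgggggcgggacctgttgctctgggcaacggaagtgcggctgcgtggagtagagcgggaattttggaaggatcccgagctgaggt
Brca2: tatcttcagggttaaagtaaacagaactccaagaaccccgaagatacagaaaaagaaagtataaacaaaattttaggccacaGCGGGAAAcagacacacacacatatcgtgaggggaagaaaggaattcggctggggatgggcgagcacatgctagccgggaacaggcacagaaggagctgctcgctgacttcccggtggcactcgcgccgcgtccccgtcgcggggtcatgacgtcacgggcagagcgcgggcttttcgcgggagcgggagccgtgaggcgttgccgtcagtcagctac
Fancg: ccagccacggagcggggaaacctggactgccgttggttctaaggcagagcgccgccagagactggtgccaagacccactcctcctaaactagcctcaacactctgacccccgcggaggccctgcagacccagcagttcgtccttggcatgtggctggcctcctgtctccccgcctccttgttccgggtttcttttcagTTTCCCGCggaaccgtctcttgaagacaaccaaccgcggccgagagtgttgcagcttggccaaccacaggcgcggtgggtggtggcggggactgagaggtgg
Chek2: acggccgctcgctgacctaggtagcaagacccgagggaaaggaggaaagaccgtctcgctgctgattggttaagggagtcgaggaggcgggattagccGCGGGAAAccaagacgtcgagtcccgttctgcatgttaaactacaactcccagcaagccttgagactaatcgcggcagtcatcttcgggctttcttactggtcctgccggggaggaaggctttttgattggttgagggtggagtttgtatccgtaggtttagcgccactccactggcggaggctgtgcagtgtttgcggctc
Msh6: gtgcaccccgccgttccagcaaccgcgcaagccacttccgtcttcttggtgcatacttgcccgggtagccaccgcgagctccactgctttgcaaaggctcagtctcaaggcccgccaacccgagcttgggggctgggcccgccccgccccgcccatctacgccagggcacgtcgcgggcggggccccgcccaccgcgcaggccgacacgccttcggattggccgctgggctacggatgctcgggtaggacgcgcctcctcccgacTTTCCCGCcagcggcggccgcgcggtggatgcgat
Eme1 and Fanci, which had the largest differences in spleen, held none of these words. Fancg held its match 52 bases before the start and Msh6 16 bases after it, while the matches of Brca2 and Chek2 lay on the reverse strand, 168 and 152 bases before. Over the list, 6 of 31 genes held a word in a window (19.4%), namely Brca2, Chek2, Fancg, Msh6, Msh3 and Rad51c. Mad2l2, Polk, Rad18 and Rad51c had 2 windows each, and a match in either counted. Of the genes called higher in spleen 4 of 15 held one (26.7%), and of the others 2 of 16 (12.5%), against 704 of 27025 genes with a window (2.6%). The CHR letters TTTGAA, on either strand, were in the windows of Dclre1a and Eme1 alone (6.45%), against 20.2% of all genes. A match describes the letters only.

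After cisplatin the RNA of no member passed the test in any organ when libraries were not paired by replicate number. With that number as a block, 4 members were called lower in kidney and 4 in liver, as given below. Each organ's cisplatin libraries were compared with its own controls with the same test against 0.4, over 34 genes in kidney, 33 in liver and all 35 in lung and in spleen, since Eme1 in kidney and Eme1 and Fanci in liver had too few reads. In kidney 2.41% of all genes were called higher and 2.65% lower, in lung 0.126% and 1.97%, and in spleen 0.164% and 0.0170%, while liver had no called gene (0%). At an unadjusted p under 0.05 for any change, 8 members passed in kidney and 2 in liver. Of all genes tested, 4393 of 15462 did so in kidney and 1595 of 13862 in liver. DESeq2 also called 0 members in every organ. For comparison, 3 of 8 p53 targets were higher in kidney, namely Cdkn1a, Mdm2 and Phlda3, and Cdkn1a alone was higher in lung. Cdkn1a was not called in liver, at 3.07 ± 0.81 (adjusted p = 0.26), or in spleen, at 1.496. The paper reports it as raised in every organ. In liver and spleen the test thus missed changes of this size. The lack of a call there does not show that a member's RNA was unchanged.

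With the replicate number as a block and every library as a replicate, Fancc, Rev3l, Msh3 and Atm were called lower in kidney. Their log2 changes in this edgeR fit were -0.9133 (adjusted p = 0.0155), -0.9285 (0.00194), -1.238 (7.7e-05) and -0.7551 (0.0454). Brip1, Rev3l, Msh3 and Atm were called lower in liver by that fit, and no member in lung or spleen. The liver changes were -2.031 (adjusted p = 0.0259), -1.447 (0.0348), -1.465 (0.0259) and -1.775 (0.0281). Deviations of same-numbered libraries correlated at 0.614 for kidney and 0.503 for liver, against 0.359 for spleen and 0.0617 for lung. The paper states that it corrected batch effects with ComBat. The labels do not tie the numbers to animals or batches. In the fit without the block, Msh3 (chr13:92211872-92355003, minus strand), whose product recognises larger loops in mispaired DNA, came nearest to the threshold in kidney. It was at 2.82 and 1.68 RPKM in kidney controls and 0.956 and 0.805 after cisplatin, so that the groups did not overlap, with a log2 change of -1.28 ± 0.27 (adjusted p = 0.075). In liver it went from 1.36 and 0.837 to 0.636 and 0.220 RPKM, and in lung from 1.05 and 1.24 to 0.734 and 0.701. These groups did not overlap either, with changes of -1.38 ± 0.46 and -0.74 ± 0.25, and in spleen they did overlap (2.28 and 2.58 against 1.98 and 2.34). Rev3l, the catalytic subunit of polymerase zeta, was at 2.59 and 1.86 RPKM in kidney controls against 1.30 and 0.944, and Fancc, a core complex subunit, at 1.55 and 1.23 against 0.689 and 0.702. Both had a log2 change of -0.93 ± 0.24 (adjusted p = 0.15). Leaving out kidney control 2 brought Rev3l and Msh3 past the threshold.

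In liver the lowest p-value belonged to Brip1, which had 0.495 and 0.285 RPKM in controls and 0.137 and 0.0573 after cisplatin, without overlap, a log2 change of -2.0 ± 0.54 (adjusted p = 0.29). Fancd2 followed at -1.54 ± 0.72. Without liver cisplatin 1, the genes Brip1, Rev3l, Msh3, Atm and Atr passed the threshold. Brip1 also had the lowest p-value in lung, with 0.436 and 0.599 RPKM in controls against 0.291 and 0.225, a change of -1.13 ± 0.35 (adjusted p = 0.29), and in kidney its groups overlapped (0.410 and 0.285 against 0.258 and 0.423). Rad18 in lung was at 1.28 and 1.21 RPKM against 0.572 and 0.727.

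The lung values stand beside a difference in cell makeup between its libraries. All 6 B cell markers and 5 of 6 T cell markers were lower in the lung cisplatin libraries, where the B cell markers summed to 63.9 to 89.4 CPM against 304 to 317 in controls and the T cell markers to 42.1 to 49.3 against 165 to 166. Glycam1, a marker of lymph node vessels, was at 155 and 159 CPM in lung controls and 0.349 and 0.0863 after cisplatin, and 5 of 20 proliferation genes were lower. The adipose markers summed to 27.3 to 70.7 CPM after cisplatin. In spleen, 7 of 8 pancreas markers were higher after cisplatin, with summed levels of 1579 to 2085 CPM against 14.8 to 16.3. The part of these differences in the members' values was not tested.

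The lowest p-value in spleen belonged to the kinase gene Chek2, which was at 6.79 and 6.62 RPKM in controls and 3.54 and 3.62 after cisplatin, without overlap, with a log2 change of -0.87 ± 0.20 (adjusted p = 0.97). Mad2l2 went the other way in spleen, from 5.67 and 5.39 to 7.90 and 7.69 RPKM, a change of 0.53 ± 0.19. Atm was at 1.70 and 1.57 RPKM in kidney controls against 1.06 and 0.827, again without overlap, and changed by -0.74 ± 0.22. The responses of 2 organs were also compared directly for all 6 pairs of organs, and edgeR called no member in any pair. No other tool was run on these differences. Of all genes, 0.0733% were called between kidney and liver, 0.120% between kidney and lung, 0.304% between kidney and spleen, 0% between liver and lung, 0.0367% between liver and spleen and 0.0105% between lung and spleen.

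The changes of the members were set against gene length in 4 classes. Members longer than 100 kb had a median log2 change of -0.93, -1.26, -0.61 and -0.34 in kidney, liver, lung and spleen, and all genes of that length had -0.72, -0.92, -0.57 and -0.33. Members shorter than 20 kb had medians of 0.07, -0.17, 0.03 and -0.03, against 0.21, 0.31, 0.14 and 0.15 for all genes. In the classes between, the members' medians lay below those of all genes in every organ. From 50 to 100 kb their medians were -0.30, -0.86, -0.22 and -0.32, against -0.28, -0.28, -0.14 and -0.11. From 20 to 50 kb they were -0.52, -0.29, -0.14 and -0.17, against -0.01, 0.01, 0.02 and -0.00, so that in kidney this class lay below the longer one. Over the members the Spearman correlation of length with the change in kidney, liver, lung and spleen was -0.40, -0.52, -0.42 and -0.47 over 34, 33, 35 and 35 genes, against -0.44, -0.55, -0.32 and -0.32 over all genes. These are descriptions across genes that share libraries. The median change of the whole list was -0.29, -0.63, -0.07 and -0.25 in kidney, liver, lung and spleen, with 22 of 34, 24 of 33, 21 of 35 and 28 of 35 below 0, and the all-gene medians were between -0.00 and 0.06. Of the 48 other genes of these pathways, Pms1 in kidney was lower and no other was called, out of 47 tested in kidney, 46 in liver and 48 in lung and in spleen.

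**Figure D2:**
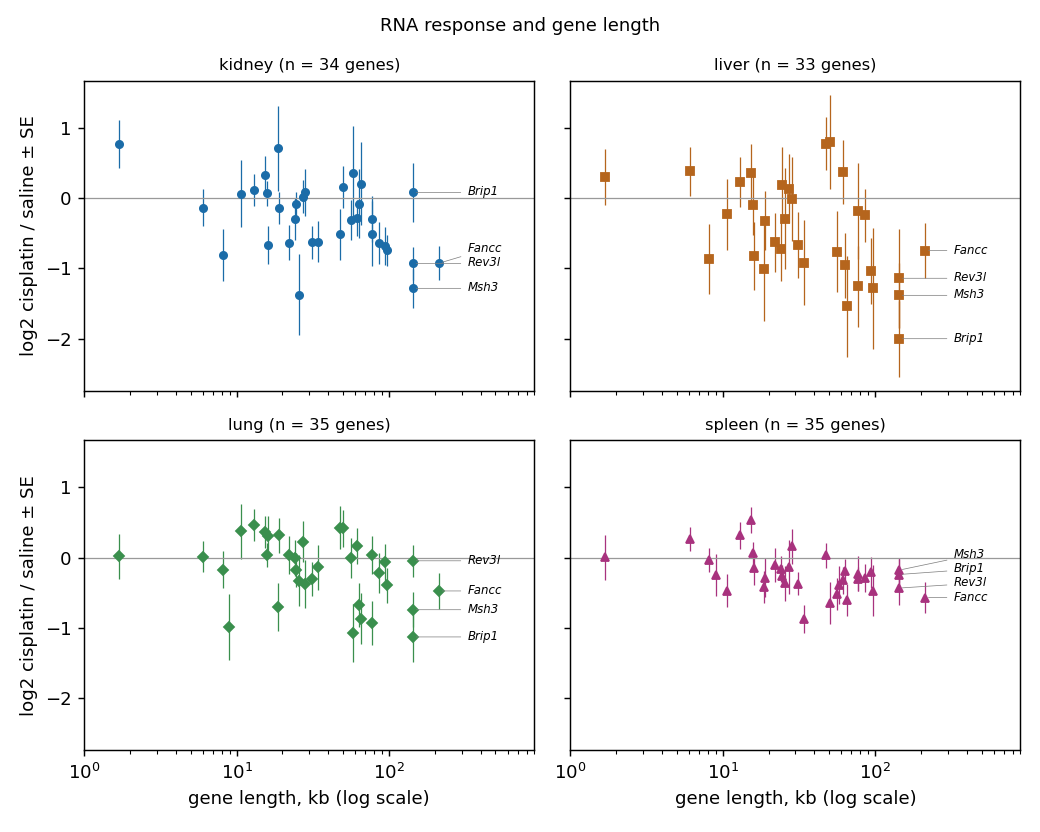
Log2 change of RNA after cisplatin (points, with bars of 1 SE) against gene length in kb on a log axis, in 1 panel per organ, for 34, 33, 35 and 35 members. The 4 genes longer than 100 kb are named, and their median is -0.93 in kidney and -1.26 in liver.

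Excision repair was stronger on the transcribed strand (TS) than on the non-transcribed strand (NTS) in most of the 35 genes in every organ. XR-seq reads of the 2 strands of a gene were compared within libraries, after division by the number of GG dinucleotides on each strand, the sites at which cisplatin can join adjacent guanines. In kidney, liver, lung and spleen TS was called higher in 28, 26, 30 and 31 of 35 members, where 55.4%, 50.4%, 58.1% and 56.8% of all 20674 genes were. TS was called lower in 5, 2, 4 and 1 members, against 5.21%, 6.05%, 6.45% and 6.13% of all genes. The median log2 ratio of TS to NTS of the members was 2.44, 3.49, 3.13 and 3.95 in kidney, liver, lung and spleen, and that of all genes was 2.54, 1.92, 2.94 and 2.90. All 7 translesion, 3 mismatch repair and 4 kinase genes had TS above NTS in kidney and in spleen. Leaving out 1 library at a time, the TS-higher and TS-lower calls together ranged over 28 to 31, 25 to 30, 25 to 34 and 24 to 32.

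Fance, a core complex subunit, had among the largest ratios. Its TS held 85.9 and 96.9 reads per 1000000 reads and per 1000 GG (RPM per kGG) in kidney, 82.8 and 86.6 in spleen, 85.0 and 88.9 in lung and 71.7 and 62.8 in liver, while its NTS held 0 to 2.10 in the 8 libraries. The log2 ratios were 7.01 in kidney, 6.94 in spleen, 7.17 in lung and 5.45 in liver. Pms2 reached 8.53 ± 1.37 in lung and Xrcc2, a recombination gene, 7.75. Rev3l had ratios of 5.35, 4.78, 5.73 and 5.55, and Msh3 of 4.11, 6.02, 5.55 and 6.74. In kidney library 1, the NTS of Fance, Fancg, Xrcc2, Slx4, Pms2 and Atm held 0 reads, as did the NTS of Xrcc2 and Pms2 in lung library 1 and of Fancd2 in spleen library 1. The fitted ratios of these genes in these organs, the largest ones of Pms2 and Xrcc2 among them, depend on the prior count of the fit.

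Fanci was excised more on the NTS in 3 organs. Its NTS held 8.26 and 7.70 RPM per kGG in kidney, 7.29 and 7.34 in spleen, 6.22 and 6.93 in lung and 7.82 and 7.01 in liver. Its TS held 5.94 and 8.72 in spleen, but 0.48 and 0.60 in kidney, 0.759 and 0.993 in lung and 0.681 and 1.10 in liver. The NTS was thus alike in the 4 organs, and the TS came near that level in spleen alone. The log2 ratio was -3.89 ± 0.42 in kidney, -2.92 ± 0.39 in lung and -3.09 ± 0.40 in liver, and the ratio of -0.02 ± 0.37 in spleen was not called. Polg lies on the opposite strand over 6.92% of Fanci, so the transcribed strand of Polg is there the NTS of Fanci, and its part in these ratios was not tested.

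The other genes with lower TS were Eme1, Xrcc3, Fanca and Fancc. Eme1 had ratios of -3.91 ± 1.45 in kidney and -4.70 ± 1.46 in lung, and its kidney call was lost without kidney library 1. Both ratios rest on few TS reads, 0 and 52 in kidney and 3 and 32 in lung. The size of the kidney ratio thus also depends on the prior count of the fit. Xrcc3 (chr12:111803192-111813873, minus strand), a recombination gene that shares 43.6% of its length with Klc1 on the opposite strand, had 78.2 and 70.5 RPM per kGG on its NTS in kidney against 4.82 and 11.8 on its TS. In liver its TS (62.1 and 62.6) overlapped its NTS (63.0 and 57.0), and the ratio of 0.06 was not called. Fanca had ratios of -2.41 in lung, -2.08 in liver and -1.50 in kidney, and 0.15, not called, in spleen. Fancc, with 2010111I01Rik over 19.3% of it, had -0.66 in kidney and 0.58 in spleen, both called. Opposite-strand genes overlapped 16 members in all, and 4 of them, Xrcc3, Fancc, Fancf and Fanci, over more than 5% of their length. Lrrc59 and Mrpl27 lie over 4.67% of Eme1, and Zfp276 over 2.88% of Fanca. The part of these overlaps in the ratios was not tested.

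**Figure D3:**
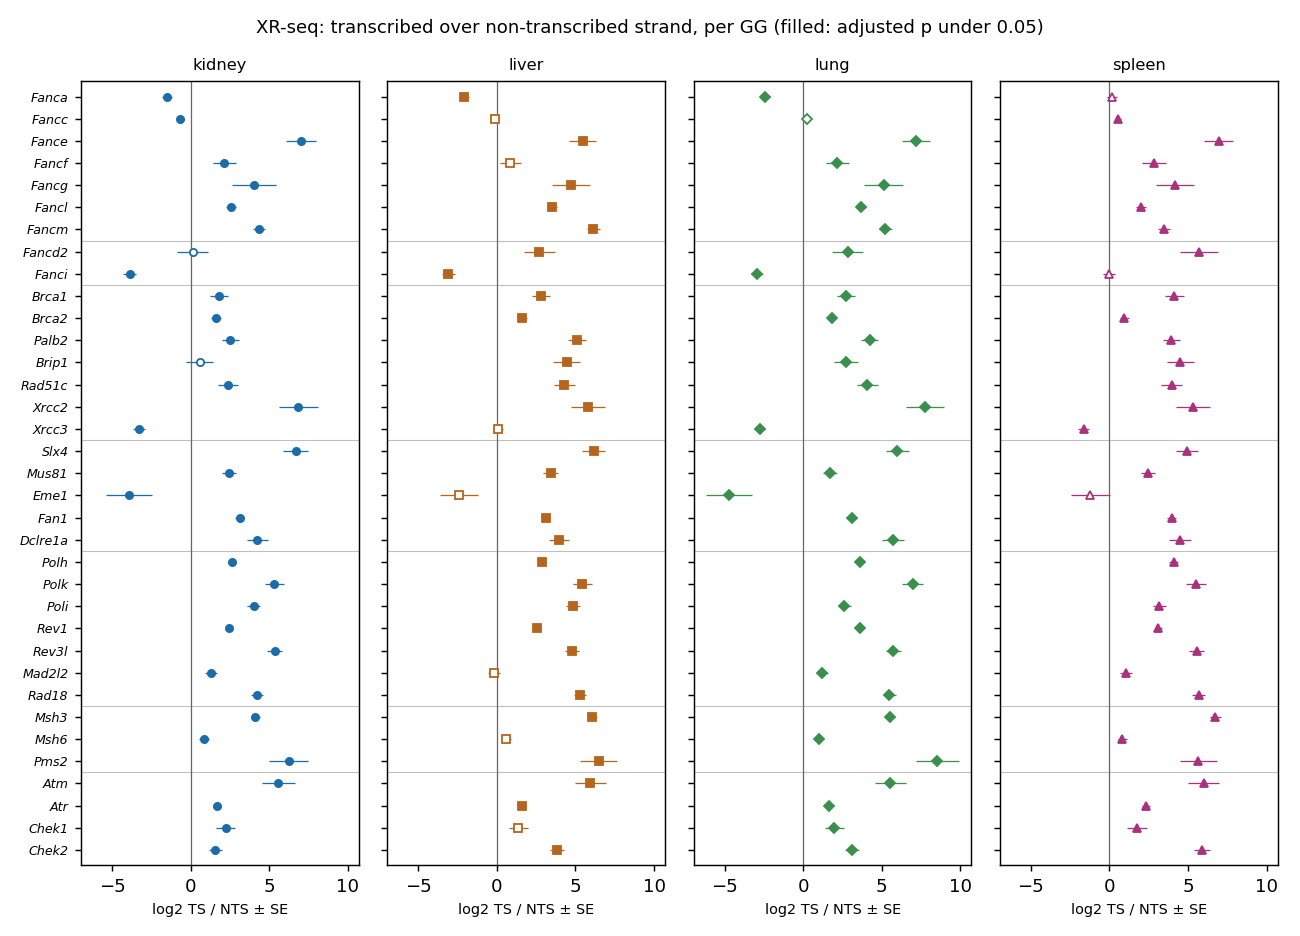
Log2 ratio of XR-seq reads on the transcribed to the non-transcribed strand, per GG, for each of the 35 genes (points, with bars of 1 SE) in 1 panel per organ. Filled points have an adjusted p under 0.05. Fanci lies at -0.02 in spleen and between -2.92 and -3.89 in the other organs, and most other genes lie above 0.

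The strand ratio itself differed between spleen and kidney for 5 members, all higher in spleen, against 7.27% of all genes higher and 2.06% lower. No other pair of organs was tested for this, and these organs had the highest and the lowest median ratio of the members. At an unadjusted p under 0.05 there were 13, against 4926 of all 20674 genes. Chek2 (chr5:110839979-110874145, plus strand) had the largest difference, of 4.30 ± 0.63 on the log2 scale (adjusted p = 0.0075). Its TS held 7.71 and 4.45 RPM per kGG in kidney and 17.7 and 20.6 in spleen. Its NTS held 3.18 and 1.21 in kidney and 0.340 and 0.314 in spleen, the latter from 7 and 21 reads. The libraries of the 2 organs did not overlap on either strand. Fanci differed by 3.87 ± 0.55 (adjusted p = 0.0069), through its TS. Msh3 differed by 2.63 ± 0.40 (adjusted p = 0.0084), with its TS at 16.7 and 12.8 in kidney and 30.9 and 28.0 in spleen. Its NTS was at 1.01 and 0.713 in kidney and 0.163 and 0.374 in spleen (13 and 97 reads), so that neither strand overlapped. Against the mean of the other organs, the kidney NTS was not called for Chek2 (1.13 ± 0.52) or Msh3 (0.74 ± 0.40). Fancc (1.23 ± 0.21) and Polh (1.46 ± 0.36), the polymerase that copies across cisplatin adducts, had smaller differences. Without spleen library 1, 2 members were called and Fancc, Polh and Chek2 were lost, and without kidney library 2, 14 were called.

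Repair of the TS was higher in liver for 19 members and in spleen for 12, and lower in kidney for 20 and in lung for 13, each organ being set against the mean of the other 3. Over all 19717 genes, 28.2% were higher and 22.6% lower in liver, 14.1% and 13.9% in spleen, 15.5% and 17.0% in kidney, and 15.3% and 16.1% in lung. No member was called lower in liver or spleen, or higher in kidney or lung. When libraries were scaled by their totals, the split became 14 higher and 2 lower in liver and 1 higher and 15 lower in kidney. The median log2 difference of the members was 0.64 in liver, 0.26 in spleen, -0.49 in kidney and -0.38 in lung, against 0.08, 0.02, -0.00 and -0.02 for all genes.

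In spleen both clamp genes and 3 of 7 core genes were called. Fanci TS was higher by 3.26 ± 0.29. Fanca TS, by 2.45 ± 0.20, was at 10.9 and 12.0 RPM per kGG in spleen against 2.80 and 3.55 in kidney, 1.20 and 1.54 in lung and 1.70 and 2.26 in liver. Fancd2 TS, by 2.31, was at 6.18 and 6.20 in spleen and 0.50 to 1.68 in the other 6 libraries. For each of these 3 genes both spleen libraries were above all others. Brca1 (1.21), Palb2 (1.10), Chek2 (1.08), Rad18 (0.97), Fancl (0.78), Atm (0.75), Fancc (0.60), Msh3 (0.58) and Poli (0.45) completed the 12.

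All 7 recombination genes were higher in liver than the mean of the other organs, and 6 of them were lower in kidney. Xrcc3, Brip1 and Brca2 were highest in liver without overlap. Palb2 TS was at 16.7 and 20.6 RPM per kGG in liver, below 28.8 and 25.7 in spleen. The liver values of Rad51c overlapped those of spleen, and those of Xrcc2 overlapped lung. Xrcc3 differed most in liver, by 2.77 ± 0.22. Brip1 TS, by 1.96, was at 8.37 and 7.26 in liver, 3.59 and 4.13 in spleen, 2.55 and 2.43 in lung and 0.917 and 2.26 in kidney, without overlap between organs. Brca1 TS was at 9.38 and 7.51 in liver and 6.29 and 9.66 in spleen, which overlapped, and at 3.28 and 1.89 in kidney and 1.60 and 1.97 in lung. Brca2 was higher in liver by 1.62, Poli by 1.28 and Msh3 by 1.17.

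In kidney the lowest values were those of Fanci (-1.91), Fancd2 (-1.65), Brip1 (-1.60), Xrcc3 (-1.59), Fancl (-1.45) and Chek2 (-1.28). Fancl TS was at 6.69 and 6.24 in kidney, 10.2 and 10.6 in lung, and 18.4 to 19.6 in liver and spleen. In lung they were Brca1 (-1.73), Fanca (-1.69), Poli (-1.67), Xrcc3 (-1.33), Rad51c (-1.0) and Msh3 (-0.86). Poli TS was at 11.9 and 12.4 in lung and 28.7 to 52.7 in the other organs, so lung did not overlap them. Of the 48 other pathway genes, 21 were higher and 10 lower in liver, 17 and 0 in spleen, 2 and 23 in kidney, and 1 and 10 in lung.

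Before treatment the RNA of the members in an organ, against the mean of the other organs, ran with the TS repair there in spleen, with a Spearman correlation of 0.54 and a Pearson correlation of 0.64 over 35 genes. In kidney these were 0.29 and 0.33, in liver 0.24 and 0.30, and in lung 0.09 and -0.12. They are descriptions across genes measured in the same libraries. Fanci, Fancd2, Fanca, Fancl, Brca1, Palb2, Poli, Rad18 and Chek2 were called higher in spleen by both measures. Eme1, with the largest RNA difference in spleen, was not called for TS repair there. Its TS held 4.23 and 8.34 RPM per kGG in spleen, from 27 and 173 reads, and at most 3.11 in any other library.

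**Figure D4:**
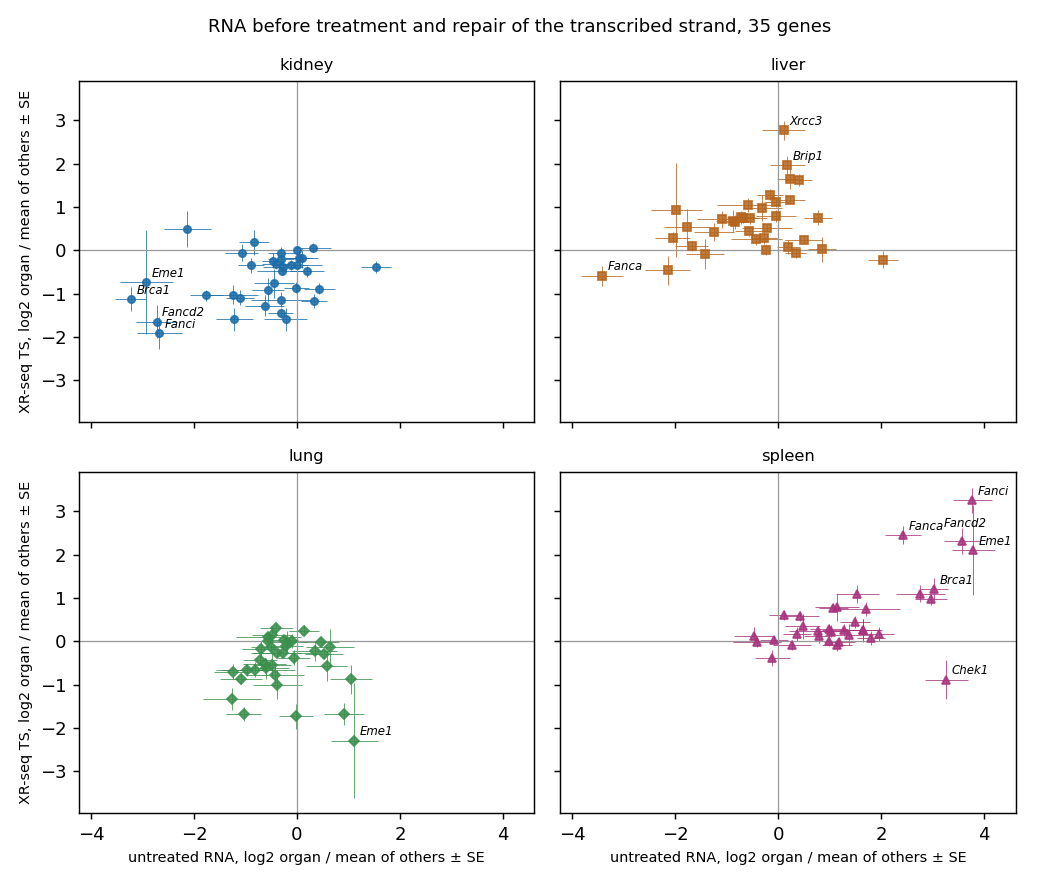
Difference of each organ from the mean of the other 3 in untreated RNA (x axis, log2) and in XR-seq of the transcribed strand (y axis, log2), with bars of 1 SE, for the 35 genes in 1 panel per organ. In spleen Fanci (3.76 and 3.26), Fancd2 (3.57 and 2.31) and Fanca (2.42 and 2.45) lie at the upper right.

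On the NTS fewer members differed between organs. Kidney had 4 lower genes (Brca2 at -1.63, Fancl at -1.25, Mad2l2 at -1.08 and Atr at -0.71) and 0 higher, against 7.27% and 5.62% of all 19397 genes. Spleen had 3 higher (Fancm, the anchor that brings the core complex to DNA, at 2.28, Fancl at 2.26 and Brca2 at 1.17) against 6.77%, and 0 lower against 5.29%. Lung had 3 higher (Mus81 at 1.66, Fancc at 0.55 and Xrcc3 at 0.50) against 7.12%, and 0 lower against 3.55%. In liver Brca2 (0.93) was higher and Mus81 (-1.72) lower, against 11.1% and 6.48%. Without kidney library 2 the calls over all organs went from 12 to 38. Of the genes named here, all but Brca2 overlap a gene on the opposite strand, from 0.647% of Fancl to 43.6% of Xrcc3. There the NTS of the member is the transcribed strand of the other gene. The part of these overlaps in the NTS differences was not tested.

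Damage in kidney, liver, lung and spleen was lower on the TS than on the NTS in 5, 11, 10 and 3 of 34 members, since Fancf held at most 10 reads on a strand in any library and was not tested. Of all 20831 genes, 20.9%, 32.7%, 27.1% and 13.1% had lower damage on the TS. TS was higher in 0 members in any organ by edgeR, against 0.403%, 0.970%, 1.51% and 0.586% of all genes. DESeq2 called 0, 7, 4 and 1 members in either direction, and 7, 16, 13 and 7 had an unadjusted p under 0.05 in edgeR. Of all 20831 genes, 6293, 8098, 7666 and 5271 had such a p in the same order of organs. The median log2 ratio of the members was -0.16, -0.41, -0.28 and -0.28 in kidney, liver, lung and spleen, against -0.21, -0.35, -0.26 and -0.23 for all genes.

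The translesion genes made up much of the liver and lung calls, with 5 of 7 in liver, 4 of 7 in lung and 2 of 7 in kidney and in spleen. Polk, a polymerase that extends past lesions, held 3.65 and 4.08 RPM per kGG on its TS in liver and 10.7 and 9.36 on its NTS, a log2 ratio of -1.40, and was also called in lung (-0.73). Rev1, which recruits the other translesion polymerases, had 3.73 and 3.02 against 10.3 and 6.84 there, a ratio of -1.36, and was also called in lung (-0.93) and spleen (-1.03). Rev3l (chr10:39732118-39875211, plus strand) was called in 3 organs. In liver its TS held 5.45 and 4.04 and its NTS 10.6 and 8.53, in lung 6.5 and 5.89 against 10.1 and 10.3, and in kidney 5.25 and 6.48 against 7.39 and 8.11. The strands did not overlap in any of these, with ratios of -1.0, -0.72 and -0.41. Poli was called in liver (-1.21) and spleen (-1.35), the latter from 7 and 7 reads on the TS and 10 and 28 on the NTS. Polh was called in kidney (-0.79), liver (-0.98) and lung (-0.69).

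Among the other roles, Fance (-0.89, -1.02 and -0.89) and the nuclease genes Slx4 (-0.69, -1.29 and -0.70) and Fan1 (-0.70, -1.07 and -1.05) were called in kidney, liver and lung. Fancl was called in liver (-0.59) and lung (-0.57). Msh3 (-0.35) and Atr (-0.74) were called in liver, Xrcc2 (-1.11) and Atm (-0.45) in lung. Chek2 in spleen held 7.0 and 7.46 on its TS and 13.8 and 14.3 on its NTS, a ratio of -0.96. The 7 recombination genes gave 0 calls in kidney, liver and spleen and 1 in lung, and neither clamp gene was called, their ratios lying between -0.19 and 0.13 over the 4 organs. Of 48 other pathway genes, 9, 23, 21 and 9 were lower on the TS in the same order of organs, and 1 was higher in lung. The calls went from 5 to 0 in kidney without kidney library 1 and to 2 without kidney library 2, from 11 to 4 and 3 in liver without liver library 1 and 2, from 10 to 6 in lung without either lung library, and from 3 to 0 in spleen without spleen library 2.

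**Figure D5:**
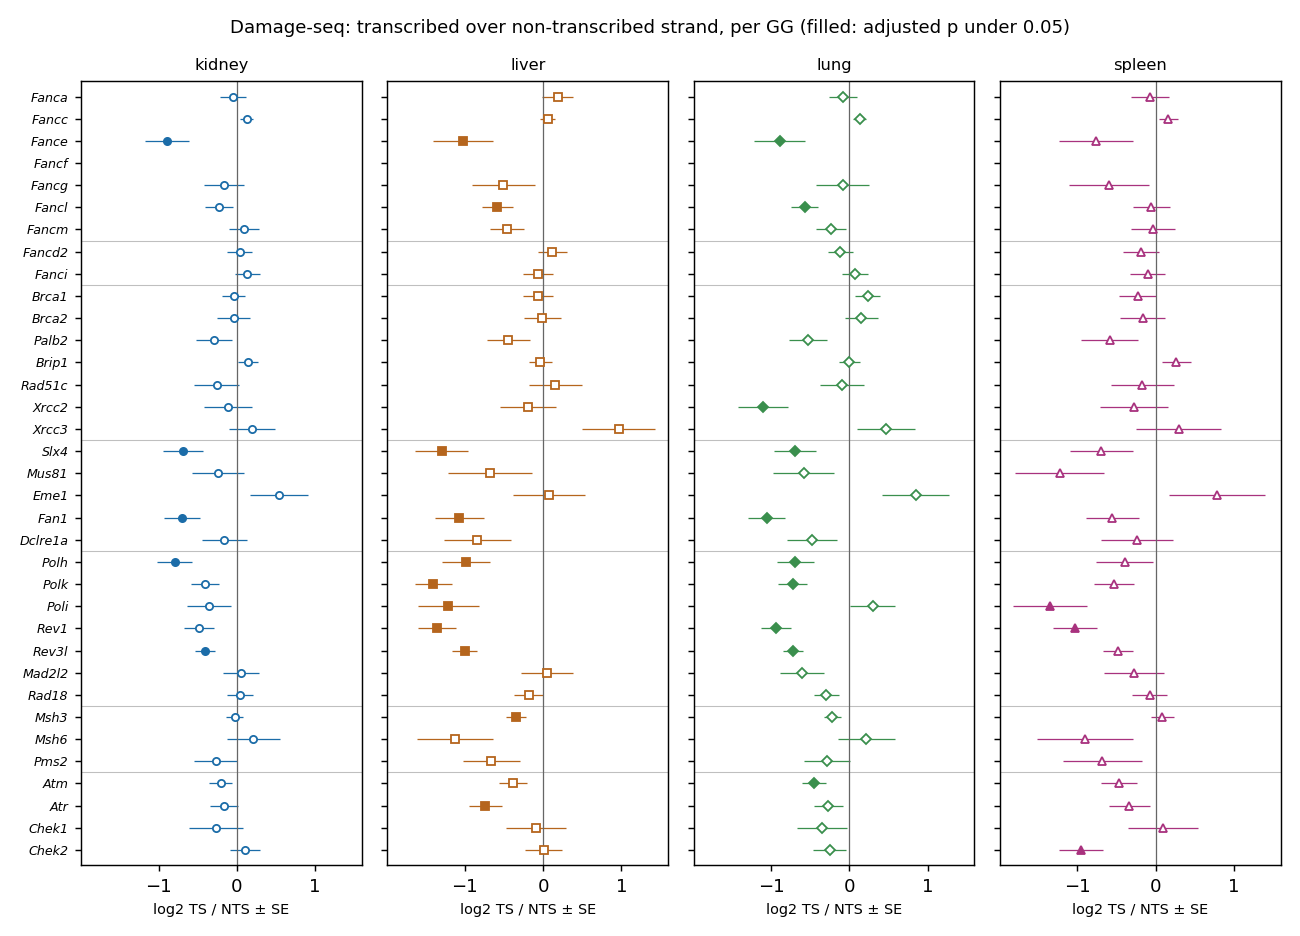
Log2 ratio of Damage-seq reads on the transcribed to the non-transcribed strand, per GG, for the 34 members tested (points, with bars of 1 SE) in 1 panel per organ, with filled points at an adjusted p under 0.05. The filled points all lie below 0 and number 5, 11, 10 and 3 in kidney, liver, lung and spleen.

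Across the 34 genes, a higher XR-seq ratio of TS to NTS went with a lower Damage-seq ratio, with Spearman correlations of -0.65, -0.44, -0.63 and -0.32 in kidney, liver, lung and spleen. These are again descriptions across genes, whose 2 ratios share the same GG counts. The RPKM after cisplatin had correlations of -0.35, -0.52, -0.44 and -0.53 with the Damage-seq ratio, and of 0.31, 0.04, 0.18 and 0.18 with the XR-seq ratio over 35 genes. Fanci, Fanca and Xrcc3, with more excision on the NTS in kidney, were not called for damage there.

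Damage on each strand differed little between organs outside kidney. On the TS, kidney had 4 higher members (Fancg at 1.42, Mus81 at 1.06, Mad2l2 at 0.96 and Xrcc3 at 0.94) and 2 lower (Fancl at -0.48 and Rad18 at -0.42), against 16.7% and 12.9% of all 19748 genes, and scaling by library totals made this 9 and 0. Fancg held 19.9 and 24.4 RPM per kGG on its TS in kidney and 6.35 to 8.43 in the other 6 libraries, without overlap. In liver Brip1 (0.37) was higher and Polk (-0.66) lower, against 8.29% and 8.72%. Poli was higher in lung (1.01), against 0.820% of genes higher and 1.46% lower. No member was called in spleen by edgeR, where 0.886% of genes were higher and 0.547% lower. There 3 members had an unadjusted p under 0.05, against 2517 of all 19748 genes. Over the 4 organs edgeR made 9 calls and DESeq2 made 2, and without either liver library edgeR made 5.

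On the NTS, kidney again had the calls, with 5 higher (Xrcc3 at 1.43, Fancg at 1.28, Fance at 0.78, Mad2l2 at 0.73 and Polh at 0.55) and 2 lower (Fancl at -0.58 and Rad18 at -0.57), against 15.0% and 11.9% of all 20249 genes. Fancg held 20.5 and 29.6 on its NTS in kidney and 6.51 to 10.6 elsewhere. Fancg, Xrcc3, Mad2l2, Fancl and Rad18 were thus called in the same direction on both strands. In liver, lung and spleen edgeR called 0 members. There 6, 2 and 1 had an unadjusted p under 0.05, against 2574, 1896 and 1825 of all 20249 genes. Of all genes, 0.0247% were higher and 0.0988% lower in liver, 0.0444% and 0.00494% in spleen, and 0% and 0.00494% in lung. DESeq2 made 4 calls over the 4 organs, against 7 by edgeR, which made 3 without kidney library 1. Over both strands the members took 0.132 to 0.157% of the Damage-seq reads in genes, with 43.5 to 48.1% of them on the TS, and 0.181 to 0.251% of the XR-seq reads, with 75.7 to 84.1% on the TS. For all genes those TS shares were 43.9 to 47.1% and 83.8 to 90.0%.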

How the data were processed

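The deposited tables hold raw read counts per gene from 8 Damage-seq, 8 XR-seq and 16 RNA-seq libraries, with the transcribed and the non-transcribed strand counted apart in the first 2 assays. Per the labels and the study's methods, the authors trimmed reads with cutadapt, used BWA and mm10 for Damage-seq and XR-seq, took out duplicates with Picard, and aligned and counted poly-A RNA reads with STAR and featureCounts. Versions are not given in the sources used here. The RNA kit does not mark strand, so reads of overlapping genes on opposite strands cannot be told apart. Each Damage-seq and XR-seq table had 1 row with neither an identifier nor a count, which was left out.

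Gene positions and exon lengths came from GENCODE for mm10, which placed 25041 of the 25058 genes that all assays listed, and GG dinucleotides were counted on the genome sequence. The members and all gene lists were chosen with earlier results of these data known. Tests were run on all genes with edgeR 4.0.16 in R 4.3.3 (quasi-likelihood, TMM factors, filterByExpr, Benjamini-Hochberg adjustment at 0.05). RNA responses and untreated RNA were tested against a log2 change of 0.4, and the other contrasts, differences between responses included, against 0. Strand ratios were fitted with the library as a block and an offset of the log GG count, over genes with at least 10 GG on each strand. Control pairs whose chi-square index was at most 3 over genes with at least 20 reads were summed. Fold changes are log2 values with a standard error from the F statistic. RPKM was computed from exon lengths, and XR-seq and Damage-seq levels as reads per 1000000 reads and per 1000 GG. These levels used library totals without TMM factors, so they are not scaled as the tests between organs are. Standard errors cover the spread between libraries only.

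All called members are named, or, where more than 12 were called, the 6 with the largest change in each direction, where none was called the 3 with the smallest p, and at least 2 members of each role. Members printed beyond this rule were chosen after their values were seen. Alternatives were DESeq2 1.42.0, its size factors, library totals, no filter on low counts, a test against 0, no GG offset, genes under 100 kb, a replicate block, and leaving out each library. The fits were tested on simulated data. Python 3.11.15 with pandas 2.3.3, numpy 2.4.6, scipy 1.17.1 and matplotlib 3.10.9 did the rest.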

Additional observations from a re-analysis of the deposited data

Results flagged for a closer look

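In 5 members the ratio of transcribed to non-transcribed strand excision differed between spleen and kidney by a direct test of the difference in edgeR (2 libraries per organ). No other pair of organs was tested for this. In log2 units the ratio was higher in spleen by 4.303 for Chek2, 3.865 for Fanci, 2.634 for Msh3, 1.457 for Polh and 1.233 for Fancc. Polh lost its call on leaving out any library other than kidney library 2, and Fancc and Chek2 lost theirs without spleen library 1.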

How the results depend on the processing

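The cause of the shifts below was not tested. Damage-seq had the fewest reads. For the genes named by the rule in each comparison, none of their values reversed under an alternative, 2028 kept their side of the threshold, 13 gained a call and 201 lost one, while the counts below cover all members. For RNA after cisplatin, members called in kidney went from 0 to 1 in a test against 0, 2 with no filter on low counts and 0 to 2 with 1 library left out, and in liver from 0 to 1 in 1 fit over all RNA samples and 0 to 5 with 1 library left out. Among all genes, kidney went from 782 to 1711, 1901 and 125 to 1929 by the first 3 of these settings. Liver went from 0 to 155 with no filter, 189 in DESeq2, 518 in 1 fit over all samples and 22 to 2124 with 1 library left out. Lung went from 383 to 801 against 0, 1075 with no filter, 1607 with every library as a replicate, 71 in 1 fit over all samples and 246 under library totals. Spleen went from 32 to 58 with no filter, 60 with every library as a replicate and 85 in DESeq2. Lung and spleen could not be fitted without a cisplatin library, which left 1 sample against 1.

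In untreated RNA, liver members called went from 10 to 22 under library totals and 5 to 10 with 1 library left out, and lung from 1 to 2 against 0, 0 with no filter, 8 with every library as a replicate, 3 under library totals and 0 to 1 with 1 library left out. The XR-seq strand difference went from 5 to 2 among genes under 100 kb, 11 in DESeq2 and 2 to 14 with 1 library left out, alternatives chosen after seeing the data. XR-seq NTS calls went from 12 to 19 in DESeq2 and 7 to 38 with 1 library left out. Damage strand calls became 0, 7, 4 and 1 in kidney, liver, lung and spleen in DESeq2, and 0 to 6, 3 to 12, 6 to 10 and 0 to 3 with 1 library left out. Damage TS calls went from 9 to 2 in DESeq2 and 5 to 10 with 1 library left out, and NTS calls from 7 to 4 and 3 to 9.

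Library totals moved the share of higher among all called genes from 47.6% to 69.6% in kidney and 55.5% to 41.8% in liver for XR-seq TS, 43.6% to 66.9% in kidney and 66.7% to 56.0% in lung for XR-seq NTS, 56.5% to 76.0% in kidney and 48.7% to 24.3% in liver for Damage TS, and 55.9% to 73.5% in kidney, 20% to 9.38% in liver and 90.0% to 75.0% in spleen for Damage NTS. For untreated RNA it moved from 41.9% to 15.2% in liver, 75.8% to 88.6% in lung and 58.6% to 70.2% in spleen, with the all-gene median going from -0.36 to -1.36 in liver and 0.03 to 0.50 in lung.

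Libraries of a pair of groups share only a replicate number, and deviations of same-numbered RNA libraries correlated at 0.614, 0.503, 0.0617 and 0.359 in kidney, liver, lung and spleen. With the replicate block and every library as a replicate, 4 members were called in kidney (Fancc, Rev3l, Msh3 and Atm) and 4 in liver (Brip1, Rev3l, Msh3 and Atm), all lower, 7 were called in untreated lung, and 3181, 809, 1914 and 89 of all genes were called in kidney, liver, lung and spleen.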
